A study of Mus musculus with 2 samples.

Results

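The proteasome is the large protease that breaks down ubiquitin-tagged proteins. Its barrel-shaped 20S core is built from outer alpha rings, which gate the entrance, and inner beta rings, which hold the proteolytic sites of Psmb5, Psmb6 and Psmb7. A 19S regulator caps the barrel: its base ATPases (Psmc genes) unfold the substrate, and its non-ATPase subunits (Psmd genes) bind ubiquitin chains and cut them off. Other caps, such as PA28, bind the same barrel without using ATP, and interferon-induced subunits (Psmb8, Psmb9 and Psmb10) can take the place of the catalytic ones to make the immunoproteasome.

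The genes described here were chosen by name: all whose symbol begins with Psma, Psmb, Psmc, Psmd, Psme, Psmf or Psmg followed by a digit, without Psmb8, Psmb9 and Psmb10. That rule found 47 of the 28692 genes listed. By known role, 14 are 20S core subunits (7 alpha and 7 beta), 17 are 19S subunits (6 ATPases and 11 others), 6 are alternative activators or an inhibitor, 7 are assembly chaperones, 2 are core subunits of other tissues (Psma8 of the testis and Psmb11 of the thymus) and 1, Psmc3ip, is a meiotic recombination gene and no proteasome gene. The name constitutive therefore covers the 31 core and 19S subunits better than the rest of the list. Psme1 and Psme2, the PA28 subunits, are induced by interferon, and Psme2b is a single-exon copy of Psme2.

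The cells were primary hepatocytes from the liver of C57BL/6 mice, embedded in Matrigel and profiled on the 10x Genomics Chromium system, with 1 library per medium. Both media held the growth factors EGF (25 ng/mL) and HGF (50 ng/mL), 10 uM of the kinase inhibitor Y27632, 1 uM of the TGF-beta receptor inhibitor A83-01, 100 mM nicotinamide and 1.25 mM N-acetylcysteine. The expansion medium added 3 uM CHIR99021, an inhibitor of GSK3, and 100 ng/mL TNFa, whereas the induction medium added 3 uM dexamethasone, a glucocorticoid, in their place, so these agents cannot be told apart. Age, sex and number of the animals and the time in culture were not known here.

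A filter of at least 500 genes and at most 25% mitochondrial counts kept 1191 expansion cells and 1245 induction cells. They held 29390000 and 9201887 unique molecular identifiers (UMIs, counted transcript molecules), and the median cell was 3.43-fold deeper in expansion medium (23184 against 6765 UMIs). All 10 hepatocyte markers were found in both libraries, with a summed level of 51348 and 76818 CPM (UMIs scaled to equal library totals), while those of macrophages, endothelium, stellate cells and lymphocytes summed to at most 0.681 CPM each. Of 5 bile duct markers Krt7 had 0 UMIs in both libraries and the others summed to 114 and 85.6 CPM, mostly Sox9. Cells with Xist only and cells with Y-linked transcripts only occurred in both libraries (325 and 505 cells in expansion, 412 and 503 in induction), and 4 barcodes were found in both. Cells with both Xist and Y-linked UMIs made up 23.1% of expansion cells (275) and 1.77% of induction cells (22); their part in the results was not tested, but values from the Xist-only and Y-linked-only cells, which leave them out, are given with the alternatives.

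With 1 library per medium there is no test of the medium: the 95% intervals below cover counting error only, and a difference outside them compares these 2 libraries. Ratios are log2 of induction over expansion CPM, and the median gene stood at 0.22, so a member at that value kept pace with the transcriptome. Levels are UMI counts not scaled to transcript length, so levels are compared between libraries and not between genes.

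The core and regulator genes stayed close to the median gene, and the PA28 genes Psme1 and Psme2, the copy Psme2b and the chaperone Psmg4 lay furthest below it in the induction library. Psmb5 lay furthest above. Of the 47 members, 44 reached 10 CPM in at least 1 library and are called measured. None of these 44 was at least 2-fold higher in the induction library with an interval excluding equality, where 9.17% of the 7220 measured genes were. In the other direction 2 members, Psme2 and Psme2b, were at least 2-fold lower, against a background of 3.17%. Psme2 lay at the limit (log2 -1.01) and missed it in Xist-only cells (-0.88), in Y-linked-only cells (-0.97) and with a stricter cell filter (-0.98). Relative to the median gene the members called were the same, 0 higher and 2 lower, with backgrounds of 6.65% and 4.67%. At 1.5-fold, 4 members were higher (Psmb5, Psmc4, Psmd2 and Psme4; background 21.1%) and the same 2 were lower (background 7.17%). With the median gene as reference, 0 members were higher by that fold (background 13.1%) and 4 lower (Psme1, Psme2, Psme2b and Psmg4; background 11.8%). Within 0.5 log2 units of the median gene lay 13 of 14 core genes, 17 of 17 regulator genes and 39 of all 44 measured members (88.6%), and 69.4% of all measured genes. The plot of log2 ratios by subunit shows this band and the 5 genes outside it: Psme1, Psme2, Psme2b and Psmg4 below and Psmb5 just above (0.504 from the median gene).

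**Figure D1:**
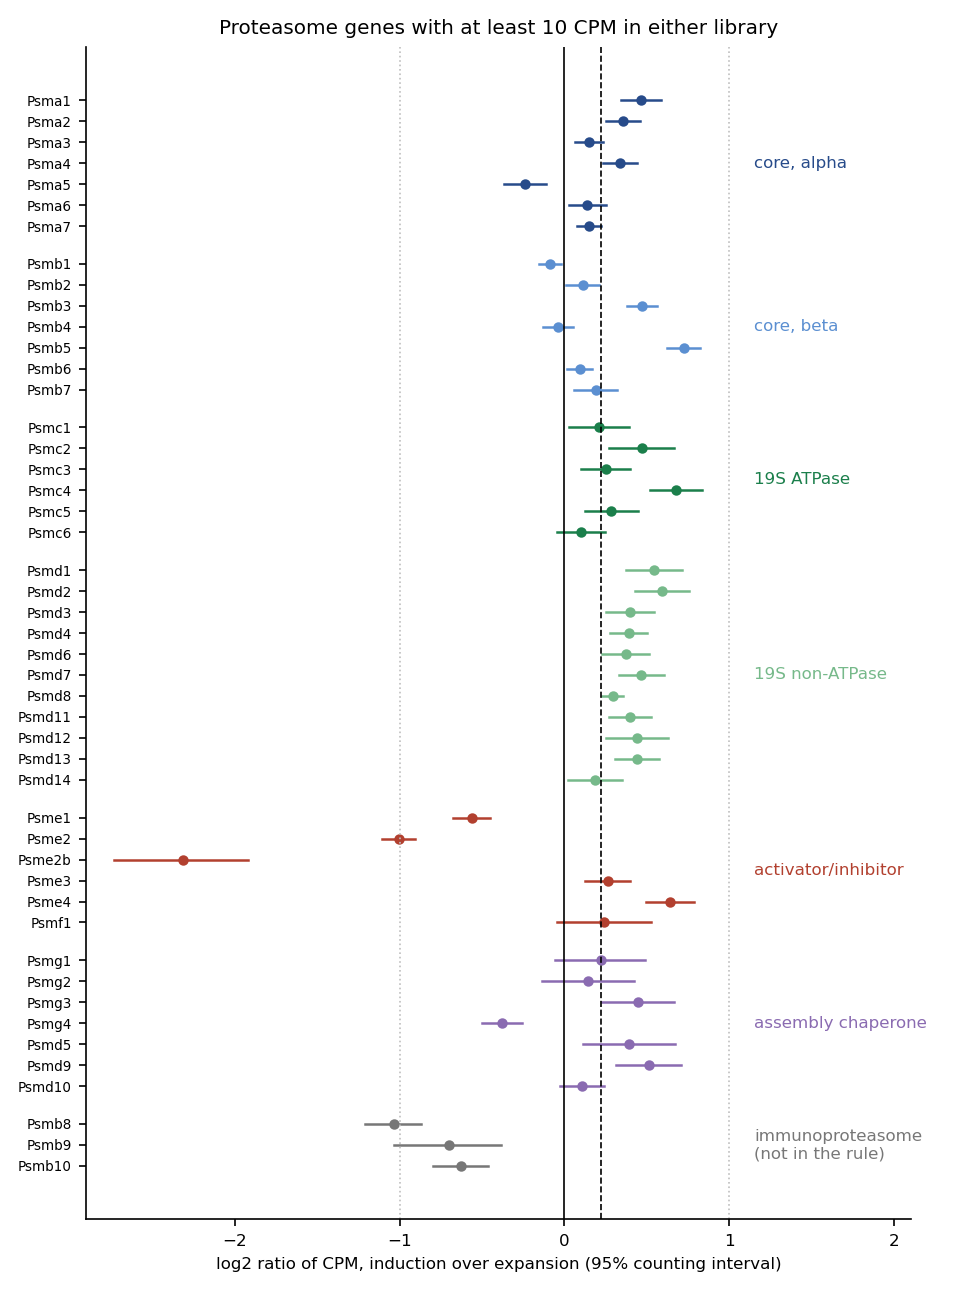
Log2 ratio of CPM, induction over expansion, of the 44 measured members and the 3 immunoproteasome subunits, by group; points are ratios, bars are 95% counting intervals, the solid line marks 0, the dashed line the median gene (0.22), and dotted lines mark 2-fold. The 19S genes lie between 0.10 and 0.68, and Psme1, Psme2, Psme2b and the 3 immunoproteasome genes lie below -0.5.

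The alpha ring genes, which form the gate and the docking surface for the caps, ranged in log2 ratio from -0.24 to 0.46. Psma7 was at 198 CPM in expansion and 219 CPM in induction medium (log2 0.15, 0.08 to 0.22). Psma1 was at 60.7 and 83.8 CPM, the largest ratio of the ring (0.46, 0.34 to 0.59). Psma5 went the other way, at 84.5 and 71.6 CPM (-0.24, -0.36 to -0.11), and was the only alpha gene with an interval wholly below 0. Summed over the ring the level was 763 CPM in expansion and 869 CPM in induction, a log2 ratio of 0.19 and thus 0.03 under the median gene.

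Among the beta genes, the 3 catalytic ones differed in how they compared between media. Psmb5, the chymotrypsin-like site, was at 79.6 CPM (76.4 to 82.9) in expansion and 131 CPM (124 to 139) in induction medium, 1.65-fold higher (log2 0.72, 0.62 to 0.82). That was the highest ratio of the 44 measured members over all cells, though the interval of Psmc4 (0.52 to 0.84) overlapped it and other members ranked above it in some alternatives: thinned to 2000 UMIs, Psme4 (0.95) and Psmc4 (0.89) against 0.76, and in Xist-only cells Psmd9 (0.82), Psmd3 (0.80) and Psme4 (0.75) against 0.59. Psmb6, the caspase-like site, was at 189 and 202 CPM (0.09, 0.01 to 0.17), and Psmb7, the trypsin-like site, at 61.8 and 70.4 CPM (0.19, 0.06 to 0.32). The intervals of both ended well short of that of Psmb5. Of the structural beta genes, Psmb1 was at 284 and 267 CPM (-0.09, -0.15 to -0.02) and Psmb4 at 144 and 140 CPM (-0.04, with an interval holding 0). Psmb3 was at 110.1 and 153 CPM (0.47, 0.38 to 0.56). The ring as a whole was at 979 and 1083 CPM (0.14), and the ratio of alpha to beta UMIs was 0.779 in expansion and 0.803 in induction, a change whose interval held 0.

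The promoters of Psmb5 and Psmb6 are shown because these catalytic genes carry, near the start site, the letters TGACNNNGC read by the antioxidant and proteasome stress factors Nfe2l1 and Nfe2l2. Each line gives the 120 bases before the RefSeq start (GRCm38), 5′ to 3′ on the gene's strand, with the match in capitals. Psmb5 lies on the minus strand of chromosome 14 and Psmb6 on the plus strand of chromosome 11.
Psmb5, chr14:54617996-54618115: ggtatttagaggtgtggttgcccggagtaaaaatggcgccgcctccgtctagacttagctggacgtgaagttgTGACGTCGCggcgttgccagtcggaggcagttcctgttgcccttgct
Psmb6, chr11:70525237-70525356: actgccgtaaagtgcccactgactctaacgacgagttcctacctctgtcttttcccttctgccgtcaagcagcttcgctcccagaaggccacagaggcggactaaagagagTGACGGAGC

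A promoter of 250 bases before to 50 after the start was found in the RefSeq table for 39 of the 47 members. Psmb7, the remaining catalytic gene, had no entry there and was not searched. TGACNNNGC, on either strand, occurred in 6 of these 39 (15.4%: Psmb5, Psmb6, Psmc6, Psmd9, Psmd12 and Psme4), and in 12.4% of all 32851 promoters of that length. Members were counted by gene, with a match in any promoter of the gene, and the background by single promoter, so these shares differ in unit. The 6 genes had log2 ratios from 0.09 (Psmb6) to 0.72 (Psmb5), and whether the letters bear on the ratio was not tested. Nfe2l1 itself was at 65.4 and 80.7 CPM (0.30) and Nfe2l2 at 136 and 143 CPM (0.07, interval holding 0).

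The 17 genes of the 19S regulator were all higher in the induction library on the CPM scale, with a median log2 ratio of 0.40 beside 0.15 for the core and 0.21 for all measured genes; relative to the median gene Psmc1, Psmc6 and Psmd14 lay slightly below it (-0.12 to -0.01). The whole interval lay above 0 for 16 of 17 regulator genes, 11 of 14 core genes and 50.8% of all measured genes. Relative to the median gene it lay above for 12 regulator and 5 core genes (background 31.6%) and below for 0 regulator and 5 core genes (background 33.1%). Summed UMIs gave 912 CPM in expansion and 1172 CPM in induction for the regulator (log2 0.36, 0.33 to 0.39), and 1742 and 1952 CPM for the core (0.16, 0.14 to 0.19). Relative to the median gene these are 0.14 and -0.06, so the sign of the core's difference depends on the scale.

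The base ATPases, which form the ring that pulls substrates into the barrel, were at 226 and 281 CPM in sum. Psmc4 was at 33.5 and 53.6 CPM (0.68, 0.52 to 0.84), 1.60-fold higher in the induction library, and Psmc2 at 24.3 and 33.7 CPM (0.47). Psmc6 was at 52.2 and 56.0 CPM (0.10, with an interval holding 0). Psmc1, Psmc3 and Psmc5 lay between them, from 0.21 to 0.28.

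The non-ATPase subunits summed to 686 and 891 CPM. The large scaffold genes were near the top: Psmd2, which binds ubiquitin receptors and shuttle proteins, was at 32.9 and 49.7 CPM (0.59, 0.43 to 0.75), and Psmd1 at 31.2 and 45.4 CPM (0.54, 0.37 to 0.71). Psmd8, a lid subunit, was at 229.9 and 281 CPM (0.29, 0.23 to 0.36). The ubiquitin receptor Psmd4 was at 75.9 and 99.4 CPM (0.39), and the deubiquitinase Psmd14, which removes the ubiquitin chain, at 40.1 and 45.6 CPM (0.18, 0.02 to 0.35). Psmd3, Psmd6, Psmd7, Psmd11, Psmd12 and Psmd13 were within 0.37 to 0.47. The ratio of ATPase to non-ATPase UMIs was 0.329 in expansion and 0.316 in induction, and the interval of its change held 0.

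Core UMIs per regulator UMI were 1.91 (1.88 to 1.94) in expansion and 1.66 (1.63 to 1.71) in induction medium. The change of this ratio does not depend on how libraries are scaled and was -0.20 in log2 (-0.24 to -0.16). It is small beside the differences of the PA28 genes below, and the ratio itself is one of mRNA counts and says nothing of assembled particles.

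Both genes of the PA28 cap, Psme1 and Psme2, were lower in induction medium. Psme1 was at 126 CPM (122 to 130) in expansion and 85.2 CPM in induction, 1.48-fold lower (-0.56, -0.67 to -0.45). Psme2 was at 209 CPM (204 to 214) and 104 CPM, 2.01-fold lower (-1.01, -1.11 to -0.91). Both genes lie on chromosome 14, 5911 bases apart. In sum they were at 335 and 189 CPM, and their UMIs per core UMI were 0.192 in expansion and 0.0969 in induction, a change of -0.99 (-1.06 to -0.91). Since both numbers come from the same cells, this change too is free of the scaling.

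Psme2b (chromosome 11, 48945354 to 48946190, GRCm38) was counted with 874 UMIs in expansion and 55 UMIs in induction, or 29.7 and 5.98 CPM. It was 4.98-fold lower, with an interval of -2.74 to -1.92 that did not overlap that of Psme2. How UMIs were divided between the 2 genes is uncertain: 715 of their 720 coding bases are identical (99.3%), and local alignment of the transcripts gave 98.8% identity over 803 bases. The stretch of coding bases 454 to 543 is shown, from the GENCODE M21 transcripts, because it holds 3 of the 5 coding differences, which are in capitals.
Psme2: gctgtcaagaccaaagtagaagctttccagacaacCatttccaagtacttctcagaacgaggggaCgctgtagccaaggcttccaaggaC
Psme2b: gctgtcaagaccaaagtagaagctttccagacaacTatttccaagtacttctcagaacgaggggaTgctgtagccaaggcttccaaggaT
Psme2b also overlaps the gene 9930111J21Rik1 on the same strand, which had 0 UMIs in both libraries.

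The other caps were not lower. Psme4, the large ATP-free activator PA200, was at 39.7 and 61.8 CPM (0.64, 0.49 to 0.79), 1.56-fold higher in the induction library. Psme3, the nuclear PA28 gamma, was at 55.9 and 67.1 CPM (0.26), and Psmf1, the inhibitor PI31, at 13.1 and 15.5 CPM (0.24, interval holding 0). Psme3 and Psmf1 were thus level with the median gene, and the 3 genes in sum were at 109 and 144 CPM (0.41).

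The motif of interferon regulatory factors, searched as GAAA, 2 bases of any kind and GAAA on either strand, was looked for in the same promoter windows. It occurred in 5 of 39 members (12.8%: Psmb3, Psmd4, Psmd9, Psme1 and Psmg4) and in 3.44% of all promoters. As above, members were counted by gene and the background by single promoter. It is shown for Psme1, the interferon-induced member that holds it, where it lies 10 to 19 bases after the RefSeq start; the gene is on the plus strand of chromosome 14 and the match, all in capitals, reads on the opposite strand.
Psme1, chr14:55578503-55578512: TTTCGCTTTC
Psme1 and Psmg4 were lower in the induction library, while Psmb3, Psmd4 and Psmd9 were higher (0.39 to 0.51), so the 5 genes did not share a direction. The NF-kB motif (GGGA, 1 base of any kind and TTTCC, either strand) was found in 0 of 39 members and 0.411% of all promoters.

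Assembly chaperones, which help build the rings and leave the finished particle, were mixed. Psmg4, a partner of Psmg3 in alpha ring assembly, was at 102 and 78.5 CPM (-0.38, -0.50 to -0.26), 1.30-fold lower in induction medium, whereas Psmg3 was at 19.5 and 26.6 CPM (0.45, 0.23 to 0.67). These partners thus differed in opposite directions. Psmd9, a chaperone of the ATPase ring, was at 23.4 and 33.5 CPM (0.51), and Psmd5, another, at 12.5 and 16.4 CPM (0.39). Psmg1, Psmg2 and Psmd10 had intervals that held 0. The 7 genes summed to 250.3 and 257 CPM (0.04, interval holding 0).

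The 3 members under 10 CPM were the testis subunit Psma8 (3 and 2 UMIs), the thymus subunit Psmb11 (3 and 0 UMIs) and Psmc3ip (198 and 37 UMIs, 6.74 and 4.02 CPM). For Psma8 and Psmb11 these counts do not exceed the floor of 3 UMIs, so no ratio is given.

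The immunoproteasome subunits left out by the rule are set beside the catalytic members they can replace. Psmb8, which takes the place of Psmb5, was at 73.8 and 36.0 CPM (-1.04), Psmb9, which replaces Psmb6, at 16.8 and 10.3 CPM (-0.70), and Psmb10, which replaces Psmb7, at 59.4 and 38.5 CPM (-0.63). Over all cells, all 3 were lower in the induction library, and all 3 constitutive partners were higher on the CPM scale. Relative to the median gene, Psmb6 (-0.13) and Psmb7 (-0.03) were not higher. Psmb8 UMIs per Psmb5 UMI were 0.926 (0.874 to 0.983) in expansion and 0.274 (0.242 to 0.309) in induction, a change of -1.76 (-1.96 to -1.56), or 3.39-fold. For Psmb9 per Psmb6 the ratio was 0.0887 and 0.0512 (-0.79, -1.14 to -0.47), and for Psmb10 per Psmb7 it was 0.962 and 0.546 (-0.82, -1.03 to -0.60). The exchange pair of the chymotrypsin-like site thus differed most, with an interval that did not overlap those of the other pairs. Over the 3 pairs together the ratio was 0.453 in expansion and 0.210 in induction (-1.11, -1.24 to -0.99).

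**Figure D2:**
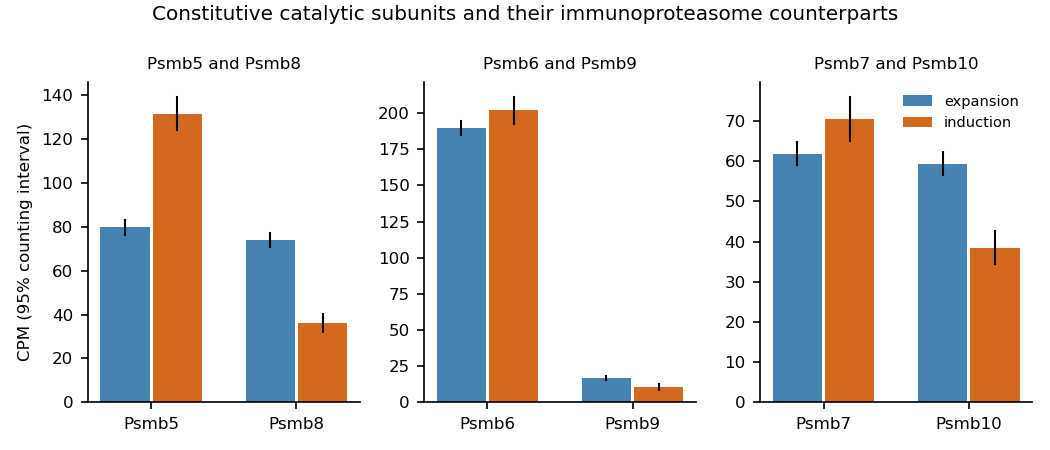
CPM of each constitutive catalytic subunit (left pair of bars) and of its immunoproteasome counterpart (right pair) in the expansion (blue) and induction (orange) library; bars start at 0 and lines are 95% counting intervals. Psmb5 is higher in induction (131 against 79.6 CPM) and Psmb8 lower (36.0 against 73.8 CPM), while Psmb6 and Psmb7 differ less between the libraries.

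Cell by cell, the typical cell put a like share of its UMIs into the core in both media. The median was 0.154% in expansion cells (quartiles 0.118 and 0.200%) and 0.157% in induction cells (quartiles 0.104 and 0.247%). For the 19S regulator the medians were 0.0833% and 0.104%, and for all members 0.310% and 0.321%. Psme1 and Psme2 together had a median of 0.0294% in expansion cells and 0.0145% in induction cells. The median cell held 7 of their UMIs in expansion and only 1 in induction, and 29 and 447 cells held 0. The induction median of these genes thus rests on very few UMIs per cell. For the core and the regulator, the box plot of shares shows a wider spread in induction cells, which were also the shallower ones. The upper whiskers ended lower in induction than in expansion cells for Psme1 and Psme2 (0.0534 against 0.0676%) and for the immunoproteasome genes (0.0326 against 0.0364%).

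**Figure D3:**
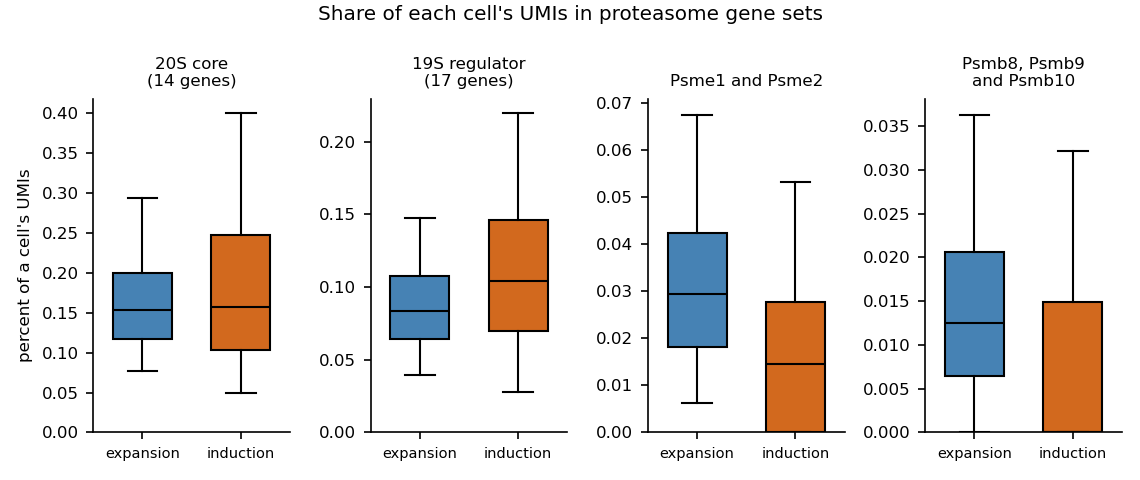
Percent of each cell's UMIs in the core, the regulator, Psme1 and Psme2, and the immunoproteasome genes, for 1191 expansion and 1245 induction cells; boxes are quartiles with the median as a line, and whiskers run from the 5th to the 95th percentile. Medians of the core nearly coincide (0.154 and 0.157%), the regulator is higher and Psme1 and Psme2 lower in induction cells.

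To compare cells at 1 depth, each was thinned to 2000 UMIs, which left out 0 expansion and 14 induction cells. At least 1 core UMI was then found in 94.7% (93.3 to 95.9%) of 1191 expansion cells and 93.7% (92.2 to 94.96%) of 1231 induction cells, with a median of 3 of the 14 core genes in both. Before thinning the shares were 100% and 99.6%. A regulator UMI was found in 80.5% (78.2 to 82.7%) and 86.6% (84.6 to 88.5%) of thinned cells, with a median of 1 and 2 of the 17 genes. For Psme1 and Psme2 the shares were 46.5% (43.7 to 49.4%) and 28.4% (25.9 to 31.0%), against 97.6% and 64.1% unthinned. Single core genes were found in 9.99 to 41.9% of thinned expansion cells and 11.1 to 38.9% of induction cells. The intervals are Clopper-Pearson intervals, and no cell type in these libraries lacks proteasome genes, so no share of background from free RNA can be set beside them.

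At this depth the variance of core UMIs over cells was 1.34 times the mean in expansion and 1.85 times in induction, and for the regulator 1.14 and 1.40 times, where pure counting gives 1. Spearman's correlation of core with regulator UMIs across thinned cells was 0.16 in expansion and 0.25 in induction (Pearson 0.16 and 0.27). These are descriptions over 1191 and 1231 cells that share a library, and they are weak.

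Cells in G2/M, taken as those with at least 2 of 14 G2/M genes among 2000 UMIs, numbered 128 in expansion and 68 in induction. Compared with the other cells of their library, their log2 ratio for the regulator was 0.22 in expansion, where the median gene stood at 0.14, and -0.13 in induction, where it stood at 0.10. For the core it was 0.11 (0.07 to 0.15) in expansion, with the median gene inside the interval. In induction the ratio of the core was -0.06 (-0.14 to 0.02), an interval that held 0 but lay below the median gene.

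Core and regulator levels also differed between clusters of cells within a library. Cells were clustered on all genes but the members and Psmb8, Psmb9 and Psmb10, which gave 9 clusters, of which 5 in expansion and 6 in induction held at least 50 cells. Core levels ranged from 1504 to 2178 CPM over the expansion clusters and from 1365 to 2661 CPM over the induction clusters, a 1.95-fold range in the latter. Regulator levels ranged from 829 to 1313 CPM and from 908 to 1606 CPM. Psme1 and Psme2 in sum ranged from 253 to 360.2 CPM and from 116 to 268 CPM.

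The lowest levels of core, regulator and PA28 genes in the induction library were all in cluster 7 (449 cells), led by Ppp1r3b, Rgs16 and the lipogenic genes Acaca and Acly. There the core was at 1365 CPM, the regulator at 908 CPM and Psme1 and Psme2 at 116 CPM. Its cells had the lowest median depth of the induction clusters (5822 UMIs), and the part of depth was not tested. At the other end, cluster 2, led by S100a6 and Serpine2 or Sprr1a, had the highest regulator level in both libraries, 1313 CPM in expansion (71 cells) and 1606 CPM in induction (92 cells). Its summed hepatocyte markers were the lowest of the clusters in both libraries, at 14034 and 29351 CPM. Cluster 2 also had the highest median depth of the clusters in both libraries (26800 and 10406.5 UMIs), and here too the part of depth was not tested.

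**Figure D4:**
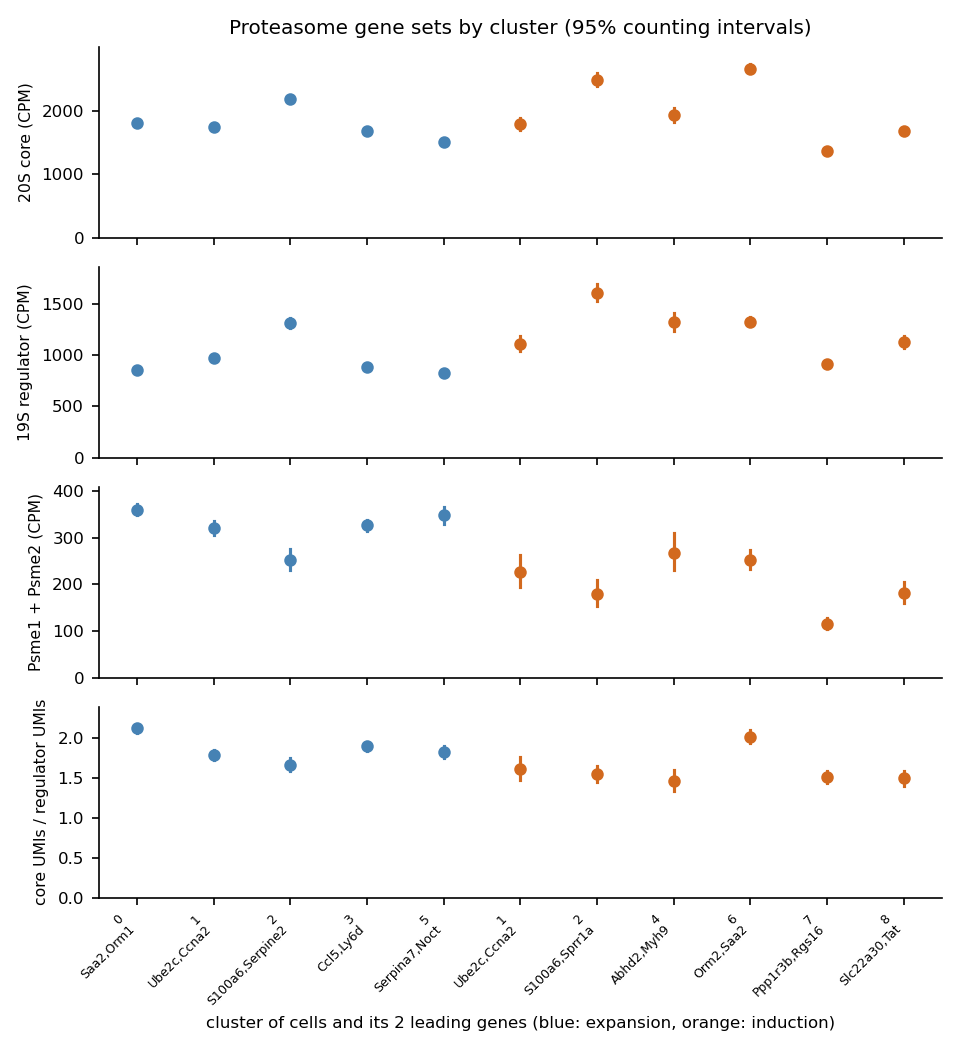
Level of the core, the regulator, and Psme1 and Psme2 in CPM, and core UMIs per regulator UMI, in each cluster of at least 50 cells (blue: expansion, orange: induction); points are pooled values over the cells of a cluster and lines are 95% counting intervals. Clusters 0 and 6, both led by Saa and Orm genes, have the highest core to regulator ratio of their library (2.12 and 2.01), and cluster 7 has the lowest core level (1365 CPM).

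The core to regulator ratio was highest in the clusters led by acute-phase genes of the Saa and Orm families. In expansion this was cluster 0 (408 cells) at 2.12 (2.06 to 2.17), beside 1.66 to 1.89 in the other clusters. In induction it was cluster 6 (312 cells) at 2.01 (1.93 to 2.098), beside 1.46 to 1.61 in the others. These clusters also had the highest hepatocyte marker levels of their library, 71282 and 122188 CPM.

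Within the induction library, cluster 6 had 2661 CPM of core transcripts against 1693 CPM in all other cells (log2 0.65, 0.61 to 0.70) and 1323 against 1118 CPM of regulator transcripts (0.24, 0.18 to 0.30). This cluster was picked for its core to regulator ratio, so these levels are a description. The median gene stood at -0.18 in this comparison, and the whole interval lay above 0 for 26 of the 44 measured members and 13.1% of all measured genes, and below 0 for 1 member and 47.1%. Relative to the median gene it lay above for 34 members (background 18.3%) and below for 0 (background 33.1%). Psmb5 was at 222 CPM in the cluster and 98.5 CPM outside it (1.17, 1.01 to 1.34). Psmb3 (0.97), Psma6 (0.99) and Psmb2 (0.93) followed, whereas Psma5 (0.15) and Psmb1 (0.11) had intervals that held 0 but lay above the median gene. These were also the 2 core genes with an interval below 0 between the media.

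The regulator subunits of cluster 6 differed among themselves. All 6 ATPases were higher, from 0.31 (Psmc3) to 0.95 (Psmc2), each with an interval above 0. Among the non-ATPases, Psmd6 (0.77), Psmd12 (0.70) and Psmd13 (0.30) had intervals above 0. The other 8 (Psmd1, Psmd2, Psmd3, Psmd4, Psmd7, Psmd8, Psmd11 and Psmd14) lay between -0.09 and 0.18 with intervals that held 0. Of these 8, Psmd7, Psmd8 and Psmd14 had intervals above the median gene, so 6 of 11 non-ATPases, all 6 ATPases and all 14 core genes lay above it. The assembly chaperone Psmg1 was at 29.3 CPM in the cluster and 12.5 CPM outside it (1.23, 0.76 to 1.71), and Psme1 was higher too (0.84). Psme2 (0.40, 0.20 to 0.60) was higher as well, and so were Psmb8, Psmb9 and Psmb10 in sum (0.74, 0.53 to 0.95). Of these, Psmb10 was at 1.13 (0.82 to 1.44) and Psmb9 at 0.74, while the interval of Psmb8 held 0 (0.29). Psme3 was lower in the cluster as CPM (-0.38, -0.67 to -0.10), but its interval held the median gene.

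**Figure D5:**
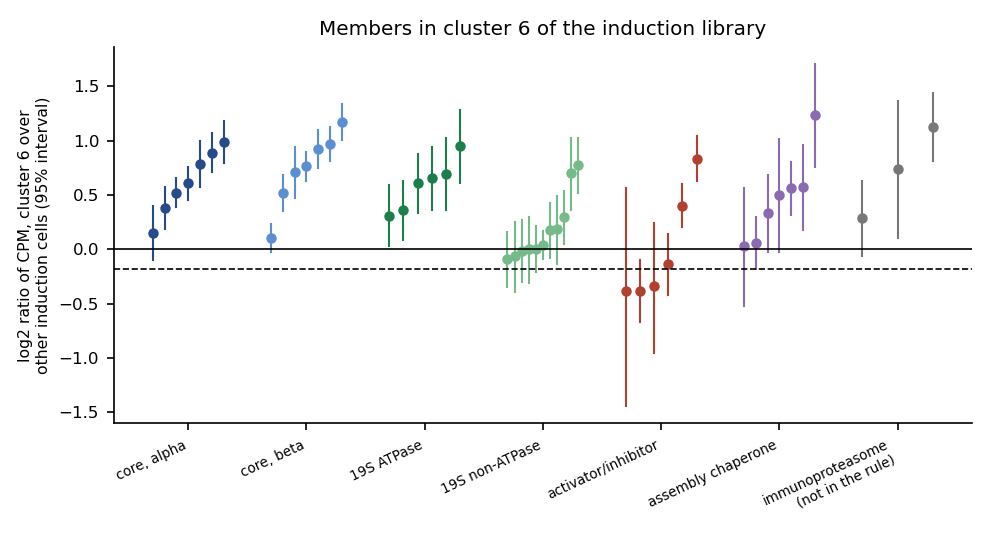
Log2 ratio of CPM in cluster 6 (312 cells) over the other cells of the induction library for the 44 measured members and the 3 immunoproteasome genes, by group; bars are 95% counting intervals, the solid line marks 0 and the dashed line the median gene (-0.18). Most core genes and all 6 ATPases lie above 0, whereas 8 of 11 non-ATPases have intervals that hold 0, of which 3 lie above the median gene.

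In expansion medium cluster 0 showed a smaller difference. Its core level was 1808 CPM against 1709 CPM in the other cells (0.08, 0.06 to 0.11) and its regulator level 855 against 942 CPM (-0.14, -0.18 to -0.10), where the median gene stood at -0.15. Psmb5 again had the highest ratio of the core genes (0.45, 0.33 to 0.57), at 96.7 and 70.9 CPM. Psmd8 had the lowest ratio of the regulator genes (-0.41), at 189 and 251 CPM.

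Without these clusters, in the remaining 783 expansion and 933 induction cells, Psmb5 was at 70.9 and 98.5 CPM (0.47, 0.34 to 0.61), a smaller ratio than over all cells. The core to regulator ratio was then 1.81 and 1.52 (-0.26, -0.31 to -0.21), and Psmb8 per Psmb5 was 1.08 and 0.345 (-1.64, -1.89 to -1.40).

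Clusters 1 and 2 held at least 50 cells in each library, so the media can be compared within them. In cluster 1, led by the cycling genes Ube2c and Ccna2 (197 and 75 cells), Psme1 and Psme2 in sum were at 320.3 and 227 CPM (-0.50, -0.73 to -0.27) and the core at 1737 and 1787 CPM (0.04, interval holding 0). In cluster 2 (71 and 92 cells) they were at 253 and 180 CPM (-0.50, -0.75 to -0.24), and the core at 2178 and 2486 CPM (0.19, 0.12 to 0.26). The median gene stood at 0.20 in cluster 1 and 0.21 in cluster 2. Relative to it the core was at -0.16 in cluster 1, with its interval wholly below the median gene. In cluster 2 the core was level with it (-0.02). The sum of Psme1 and Psme2 was thus lower in induction medium within both clusters, as over all cells (-0.82), though in cluster 1 the interval of Psme1 alone held 0 (-0.34, -0.70 to 0.01). Psme2 alone was at -0.61 (-0.92 to -0.31) in cluster 1 and -0.49 (-0.82 to -0.18) in cluster 2, beside -1.01 over all cells. Psmb5 was at 101 and 157 CPM in cluster 2 (0.64, 0.33 to 0.95) and at 74.5 and 94.9 CPM in cluster 1 (0.35, interval holding 0). Psmb8, Psmb9 and Psmb10 in sum were lower in induction medium in cluster 1 (-0.45, -0.80 to -0.11) and cluster 2 (-0.55, -0.98 to -0.15), beside -0.82 over all cells. Singly, Psmb8 was lower in both clusters (-0.62 and -0.97), and the intervals of Psmb10 held 0 in both (-0.35 and 0.05). That of Psmb9 held 0 in cluster 1 (-0.06), and in cluster 2 it had only 22 and 3 UMIs (-1.75, -4.14 to -0.02). Core UMIs per regulator UMI were 1.79 (1.73 to 1.85) and 1.61 (1.47 to 1.76) in cluster 1. In cluster 2 they were 1.66 (1.58 to 1.74) and 1.55 (1.45 to 1.65). The intervals of the media overlapped in both clusters, which they did not over all cells.

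Of 28 genes that act beside the proteasome, 27 were measured, with a median log2 ratio of 0.24, close to the median gene. The whole interval lay above 0 for 19 of the 27, where it did for 50.8% of all measured genes; relative to the median gene it lay above for 10 and below for 6 (backgrounds 31.6% and 33.1%). The polyubiquitin gene Ubb was at 490.2 and 532 CPM (0.12). Rps27a, which encodes ubiquitin fused to a ribosomal protein, was at 6282 and 4463 CPM (-0.49). These ubiquitin genes thus differed in direction on the CPM scale only. Relative to the median gene both Ubb (-0.10) and Rps27a (-0.71) lay below.

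Among genes that process the proteasome factor Nfe2l1, the protease Ddi2 was at 48.2 and 85.6 CPM (0.83, 0.70 to 0.95) and the glycanase Ngly1 at 17.5 and 26.2 CPM (0.59, 0.36 to 0.81). Both were further from 0 than Nfe2l1 itself (0.30). Sel1l, of the pathway that takes misfolded proteins out of the endoplasmic reticulum for proteasomal breakdown, was at 36.3 and 58.8 CPM (0.69). Vcp, the segregase that feeds the proteasome, was at 125 and 148 CPM (0.24), level with the median gene, and Pomp, the chaperone of core maturation, at 151 and 203 CPM (0.43).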

How the data were processed

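The deposited files hold raw UMI counts per gene and cell barcode. The submitters' processing notes name Cell Ranger 2.1.1 and the mouse build mm10. Whether counting used strand is not given in the sources used here. Exons of 13 members overlap another gene, 4 of them on the same strand.

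Counts were summed over cells with at least 500 genes and at most 25% mitochondrial UMIs, and given as CPM with exact Poisson intervals. Ratios between libraries have exact binomial 95% intervals conditional on the total (scipy 1.17.1). The code for these ratios was checked on simulated Poisson counts, the counting model that the intervals assume. Called there means at least 2-fold apart with an interval excluding equality. All of 100 genes changed by 1.5 and of 100 changed by 3 log2 units were called, and 0% of 6585 unchanged ones were. Of 6785 intervals, 95.5% held the true ratio. The simulation had no variation between cells or libraries, so it checks the code and cannot show how often real counts pass. The median gene is that of 8480 genes that reached 50 UMIs in each library. The floor is 3 UMIs, or 0.102 CPM in expansion and 0.326 CPM in induction. Counting intervals and floors cover counting error only. Scrublet marked 6 and 4 cells as doublets, which were kept.

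Members and lists were chosen with earlier results of these data known. All members, Psmb8 to Psmb10 and the list of related genes could be named; described in full were the catalytic subunits, the gene of each group with the highest mean CPM, and the 5 largest ratios in each direction among members of at least 20 CPM. Leiden clusters (scanpy 1.11.5; 2000 variable genes, 20 components, 15 neighbours, resolution 0.6) and cluster comparisons were added after the data had been seen. Positions and transcripts come from GENCODE M21 (GRCm38), which held 28339 of the 28692 gene IDs, and promoters from RefSeq. Some results for the list of related genes are not reported here.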

Additional observations from a re-analysis of the deposited data

How the results depend on the processing

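The scale decided the sign of small differences. With CPM computed without mitochondrial and ribosomal protein genes, the log2 ratios of the core, alpha ring and beta ring reversed to -0.0619, -0.0378 and -0.0810, and scaled to the median gene they were -0.0554, -0.0313 and -0.0746. On these scales, in that order, Psma3 was at -0.0780 and -0.0715, Psma6 at -0.0864 and -0.0799, Psma7 at -0.0754 and -0.0690, Psmb2 at -0.12 and -0.11, Psmb6 at -0.13 and -0.13, Psmb7 at -0.0372 and -0.0308, Psmc1 at -0.0155 and -0.00897, and Psmd14 at -0.0409 and -0.0344; the median over measured members was 0.0373 and 0.0546. Members whose interval held 0 over all cells reversed too: Psmc6 (-0.12 and -0.12), Psmd10 (-0.12 and -0.11) and Psmg2 (-0.0811 and -0.0746). The regulator was at 0.14 and 0.14, ATPases at 0.0902 and 0.10, non-ATPases at 0.15 and 0.16, activators at -0.70 and -0.70, and chaperones at -0.19 and -0.18.

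In cells with Xist only, Psma6 (-0.16), Psma7 (-0.0148), Psmg1 (-0.16) and Psmb4 (0.0152) reversed, and the core was at 0.12, the alpha ring 0.0868, the regulator 0.29, ATPases 0.24 and non-ATPases 0.31. Psmb4 reversed in Y-linked-only cells too (0.0184), and over all cells the intervals of Psmg1 and Psmb4 held 0. In cells with Y-linked transcripts only, the core was at 0.22, the alpha ring 0.29, the regulator 0.43, non-ATPases 0.45, activators -0.42, and Psmb9 per Psmb6 -1.16. Thinning to 2000 UMIs gave 0.0976 for the core, 0.0752 for the alpha ring, 0.40 for the regulator, 0.39 for ATPases, -0.0239 for Psmb2 (reversed), -0.30 for core per regulator and -2.05 for Psmb8 per Psmb5. Without G2/M cells the regulator was at 0.40 and non-ATPases at 0.42. Members at least 2-fold lower were 1, not 2 (Psme2 was lost), with the stricter cell filter (1000 genes, 10% mitochondrial) and in either the Xist or the Y-linked cells.

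The median share of a cell's UMIs in all members was 0.518% in expansion and 0.461% in induction without mitochondrial and ribosomal protein genes, 0.314% and 0.330% with the stricter filter, and 0.3% in both at 1000 UMIs. In expansion it was also 0.320% in Xist cells, 0.3001% in Y-linked cells and 0.304% without G2/M cells. The median share of cells with a UMI of a measured member was 5.12% and 6.22% at 1000 UMIs, beside 10.1% and 12.3% at 2000.

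Over the 9 alternatives the log2 change of core per regulator stayed between -0.30 and -0.17, and that of immunoproteasome per constitutive catalytic UMIs between -1.23 and -1.07. Single clusters are not among these alternatives. Within clusters 1 and 2 the core to regulator intervals of the media overlapped, as given above. Over 11 alternatives Psme2 stayed between -1.23 and -0.88 and Psmb5 between 0.50 and 0.79. No paired analysis was possible because each medium has 1 library, which also leaves no replicate to leave out.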
